A study of Mus musculus with 23 samples.

Results

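The interleukin receptor genes were taken as every gene of the count table whose symbol starts with Il, a number and the letter r, which gave 41 of 47729 genes. Of these, 40 encode receptor chains, accessory chains, decoys or soluble binding proteins. The remaining gene, Il1rn, matches the pattern but encodes the IL-1 receptor antagonist, a secreted protein that occupies the IL-1 receptor without signalling. The RNA came from splenic dendritic cells of wild-type BALB/c mice (Balb/C in the labels), sorted by flow cytometry, and each library was made from a pool of mice. The populations were DC1a (CD8hi CD172-), DC1b (CD8Int CD172+), DC2 (CD8lo CD172hi) and DC3 (CD8- CD172lo), taken from untreated mice (2 pools for each population, 8 libraries) and from mice labelled TLI (4 pools, 15 libraries, with 3 for DC2). TLI is not spelled out in the labels and is usually read as total lymphoid irradiation. Batch 1 of the labels holds the untreated libraries together with pools 1 and 2 of the TLI mice, and batch 2 holds TLI pools 3 and 4.

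Interleukin receptors are built from chains that are shared among cytokines and chains that are private to one of them. The common gamma chain (Il2rg) pairs with the private chains for IL-2, IL-4, IL-7, IL-9, IL-15 and IL-21 and signals through JAK and STAT proteins, whereas the IL-1 and IL-18 receptor chains carry a TIR domain and signal through Myd88. Which private chain a dendritic cell makes sets the cytokines to which it can respond, and decoys such as Il1r2 bind a ligand without signalling.

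Depth ran from 19256447 to 36997890 counts over the 23 libraries, and a gene with 3 counts or fewer was taken as at the floor, which is 0.0811 to 0.156 CPM (counts scaled to a common library total) depending on the library. These limits cover counting error only. The labels of the populations were checked against marker lists. The list for classical CD8+ dendritic cells (7 genes) summed to 2310 to 2600 CPM in untreated DC1a, 1870 to 1880 in DC1b, 1690 to 1770 in DC3 and 206 to 232 in DC2, and that for CD172+ dendritic cells (6 genes) was highest in DC2, at 672 to 769 CPM. A list for plasmacytoid dendritic cells (6 genes) summed to 4035 and 5616 CPM in untreated DC1b and to at most 256 CPM in any other library. Erythroid genes (4 genes) summed to between 11868 and 82992 CPM in the 7 TLI libraries of batch 1 and to at most 4104 CPM in the other 16. In pooled cells a lower level can mean fewer cells that make a transcript or less of it per cell, and these cannot be told apart.

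The 41 genes summed to between 199 and 2266 CPM per library. The 8 genes Il2rg, Il1r2, Il10ra, Il13ra1, Il6ra, Il10rb, Il17ra and Il7r had the highest mean CPM over the 8 groups. Il2rg alone made up 10.3 to 55.0% of that sum, with a median of 32.6%. Per length, in TPM (counts divided by exonic length and scaled to a common total), Il2rg was the highest member in 22 of 23 libraries, with Il1r2 highest in the other one. The medians over libraries were 169 TPM for Il2rg, 38.6 for Il10ra, 25.6 for Il1r2 and 20.8 for Il13ra1. Every library held more than 3 counts of 8 members. At the low end, 5 members stayed under 1 CPM in every library, and Il13ra2, the decoy for IL-13, had no count in any of the 23, which allows at most 0.0811 to 0.156 CPM.

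**Figure D1:**
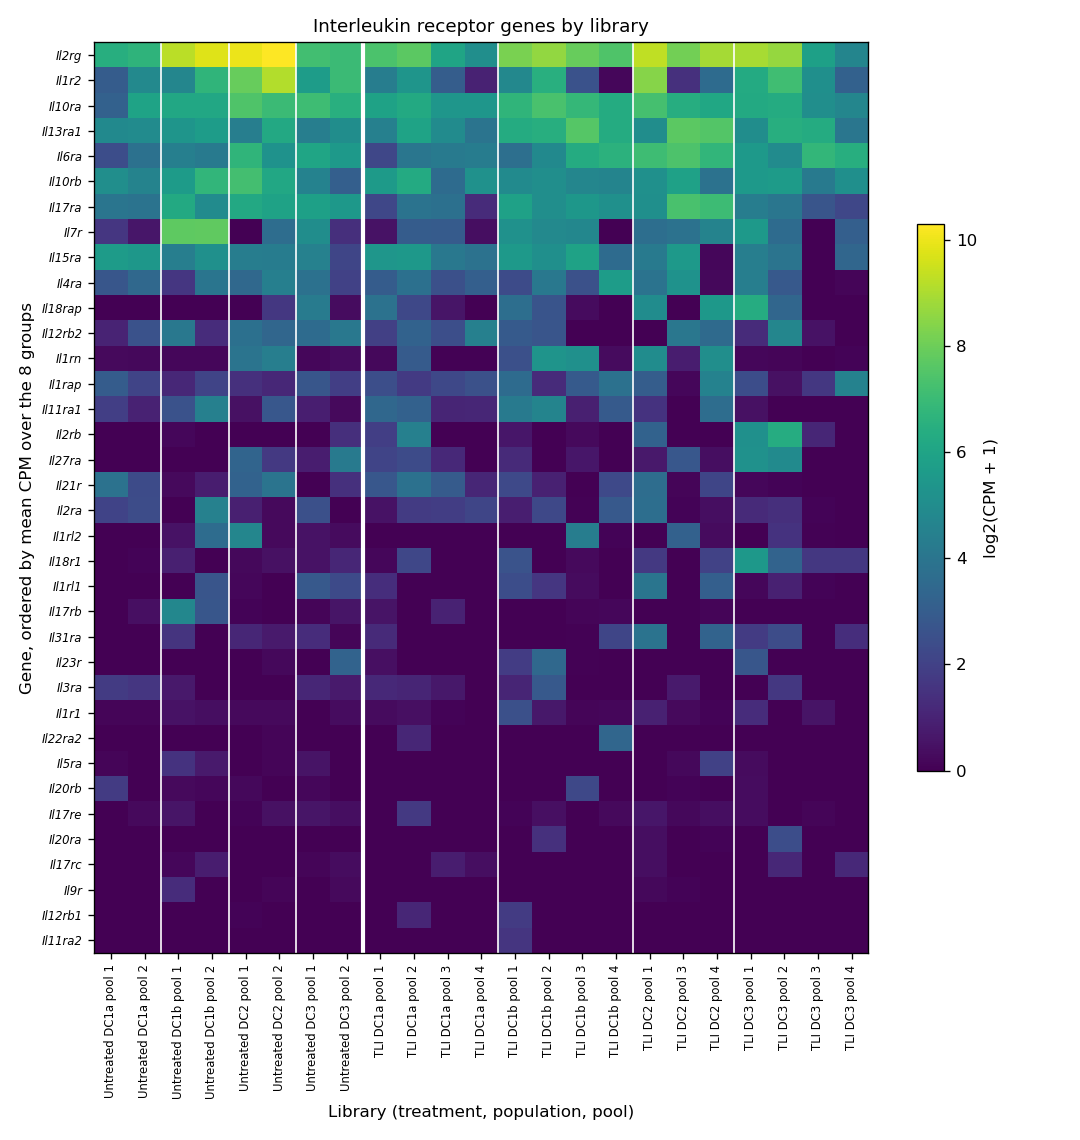
Log2(CPM + 1) of the 36 interleukin receptor genes that reached 1 CPM in at least 1 library (rows, ordered by mean CPM) in each of the 23 libraries (columns, by treatment, population and pool). White lines part the groups and the thick line parts untreated from TLI libraries. Il2rg is the brightest row, Il1r2 and Il2rg peak in untreated DC2, and Il7r stands out in untreated DC1b.

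Promoter sequence was taken from RefSeq (GRCm38.p6) for genes called as different among populations in the tests below. The table held 34 of the 41 genes, and Il10ra and Il17ra have no entry. The 250 bases before the transcript start are shown for Il2rg, Il1rn (the first of its RefSeq starts) and Il6ra, which are among those genes. Counts were by gene, so the start used in these cells is not known. They were searched on both strands for AGGAAG (bound by PU.1 in myeloid cells), TGACTCA (the AP-1 site) and a paired GAAA motif (GAAA, any 2 bases, GAAA, bound by interferon regulatory factors), and matches stand in capitals.
Il2rg (chrX:101268256-101268505, minus strand): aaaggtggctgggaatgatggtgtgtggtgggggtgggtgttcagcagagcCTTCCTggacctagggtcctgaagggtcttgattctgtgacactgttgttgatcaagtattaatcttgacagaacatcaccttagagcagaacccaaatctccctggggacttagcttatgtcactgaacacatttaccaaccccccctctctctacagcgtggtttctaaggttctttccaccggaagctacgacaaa
Il1rn (chr2:24336610-24336859, plus strand): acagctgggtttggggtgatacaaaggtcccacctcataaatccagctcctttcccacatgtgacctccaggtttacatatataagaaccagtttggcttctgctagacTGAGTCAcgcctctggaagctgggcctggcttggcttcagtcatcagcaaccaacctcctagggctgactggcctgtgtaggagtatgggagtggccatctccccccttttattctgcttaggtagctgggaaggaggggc
Il6ra (chr3:89913197-89913446, minus strand): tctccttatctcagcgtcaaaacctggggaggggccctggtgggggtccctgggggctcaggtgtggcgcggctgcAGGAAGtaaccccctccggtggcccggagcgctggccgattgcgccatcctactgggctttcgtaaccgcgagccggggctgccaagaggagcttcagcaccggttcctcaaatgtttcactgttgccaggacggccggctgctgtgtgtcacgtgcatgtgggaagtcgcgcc
Counted back from the start, with -1 as the base before it, AGGAAG lay at -199 to -194 in Il2rg (reverse strand) and at -174 to -169 in Il6ra, and TGACTCA at -141 to -135 in Il1rn (reverse strand). Of all 32851 promoters in the table, 29.5% held AGGAAG, 4.46% TGACTCA and 2.98% the paired GAAA motif in the same window, and of the 42 promoters of the 34 genes 16, 6 and 0 did. These matches describe the sequence and are not evidence of binding.

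Among the untreated populations the members called by edgeR were the common gamma chain and the IL-1 receptor antagonist. Of the 41 genes, 26 passed the filter on low counts, and 2 of them were called in a test for any difference among the 4 populations (adjusted p under 0.05 in the quasi-likelihood test of edgeR, corrected by Benjamini-Hochberg across every gene tested), where 2.24% of all genes tested were called. Without adjustment 8 of the 26 had p under 0.05, against 19.5% of all genes. With 2 libraries for each population, a population can easily lie wholly above or below the rest. The share of all genes in which this happens was not counted, so lack of overlap below only describes the order of values.

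Il2rg was measured at 85.7 and 102 CPM in DC1a, 602 and 875 in DC1b, 1012 and 1246 in DC2, and 143 and 127 in DC3. The DC1b and DC2 libraries lay above every DC1a and DC3 library without overlap. Its adjusted p for any difference was 0.0093 (edgeR's quasi-likelihood test, n = 2 for each population). By pairs, Il2rg was higher in DC1b than in DC1a by 2.68 ± 0.27 (SE) on the log2 scale (adjusted p = 0.0156, edgeR) and higher in DC2 than in DC1a by 3.35 ± 0.28 (adjusted p = 0.0093). It was lower in DC3 than in DC1b (-2.43 ± 0.27, adjusted p = 0.0356 by edgeR) and than in DC2 (-3.10 ± 0.28, adjusted p = 0.0103). Calls made up 1.11% of all genes for DC1b against DC1a, 2.67% for DC2 against DC1a, 0.3% for DC3 against DC1b and 1.01% for DC3 against DC2. The other pairs gave no call of Il2rg: DC2 and DC1b differed by 0.67 ± 0.26 (adjusted p = 0.335, edgeR; 0.51% of all genes called) and DC3 and DC1a by 0.25 ± 0.25 (adjusted p = 0.773; 0.138% called).

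The order of Il2rg levels kept its direction when any library was left out, but with 2 libraries for each population several calls rested on single libraries. The call for any difference was lost without DC1a pool 1 (adjusted p = 0.0577, edgeR) or DC1a pool 2 (0.0532). The call of DC2 over DC1a was lost without either DC1a library (adjusted p up to 0.106), that of DC1b over DC1a without either DC1a library or DC1b pool 2 (up to 0.181), that of DC3 under DC2 without any of their 4 libraries (up to 0.0828), and that of DC3 under DC1b without any of the 8 (0.0822 to 0.191). With the pool as a block, DC3 under DC1b had an adjusted p of 0.0635 by edgeR. In a fit of all 23 libraries the calls of DC1b over DC1a (0.0818) and of DC3 under DC1b (0.198) were lost. The list for CD172+ dendritic cells (6 genes) was also lowest in DC1a and highest in DC2, at 9.38 to 17.8 CPM in DC1a, 70.2 to 103 in DC3, 262 to 349 in DC1b and 672 to 769 in DC2. Genes of monocytes and macrophages (9 genes) summed to 2225 to 3924 CPM in DC1b, 1110 to 1230 in DC2, 265 to 362 in DC1a and 410 to 545 in DC3, and those of plasmacytoid dendritic cells to 4035 and 5616 CPM in DC1b alone and at most 256 elsewhere. The part of these lists in the Il2rg levels was not tested.

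Il1rn was measured at 14.7 and 20.2 CPM in DC2, and between 0.12 and 0.274 CPM in the 6 libraries of the other populations. DC2 lay above the other 3 populations without overlap, at 96.0 times the mean CPM of DC1a and 84.9 times that of DC3. These ratios are imprecise, since they rest on 6 and 4 counts in DC1a and 3 and 7 in DC3, at or near the floor of 3 counts. The adjusted p was 0.0292 for any difference and 0.0427 for DC2 against DC1a (edgeR's quasi-likelihood test), while the other pairs with DC2 missed the threshold, at 0.0729 against DC1b and 0.0588 against DC3. The call for any difference was lost when any of the 8 libraries was left out (adjusted p 0.0637 to 0.148, edgeR), with the pool as a block (0.0833) and in a fit of all 23 libraries (0.113). For DC2 against DC1a the corresponding values were 0.0674 to 0.341, 0.0923 and 0.257, and 0.105 with no filter on low counts. The ligand that the antagonist opposes, Il1b, was measured at 5648 and 8068 CPM in the same DC2 libraries and at 1079 to 2105 CPM in the other 6.

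Il1r2, the decoy receptor for IL-1, was also most abundant in untreated DC2, at 239 and 542 CPM. It reached 6.90 and 27.5 CPM in DC1a, 25.7 and 104 in DC1b, and 50.8 and 130 in DC3. The DC2 libraries lay above the other 6, with a difference of 4.26 ± 1.07 on the log2 scale from DC1a that was not called (adjusted p = 0.105, edgeR). With the pool as a block that comparison was called (adjusted p = 0.0254, edgeR). It was also called with no filter on low counts (0.0131, edgeR) and by DESeq2 (2.26e-05). Il1r1, the signalling receptor for IL-1, was at or under 0.424 CPM in every untreated library, and its highest value in the series was 4.68 CPM.

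Il7r, the private chain for IL-7 and for TSLP, was measured at 215 and 215 CPM in untreated DC1b. Its other untreated values were 2.13 and 0.54 CPM in DC1a, 0 and 11.7 in DC2, and 32.1 and 1.65 in DC3, so that DC1b stood above all of them. The difference from DC1a was not called by edgeR (7.02 ± 2.56 on the log2 scale, adjusted p = 0.26). DESeq2 called it (adjusted p = 0.0317). Il17rb, the private chain for IL-25, was singled out after its values were seen, at 25.8 and 5.68 CPM in untreated DC1b and at most 0.973 CPM in each of the other 21 libraries. Part of it, 141 bp, overlaps Actr8 on the opposite strand. The plasmacytoid marker list was highest in the same DC1b libraries for 6 of 6 genes, among them Siglech at 1160 and 1858 CPM, and its part in the Il7r and Il17rb levels was not tested.

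The remaining abundant chains were present in all 4 untreated populations. Il6ra, the ligand-binding chain for IL-6, was measured at 4.43 and 13.3 CPM in DC1a, 20.7 and 17.1 in DC1b, 106 and 36.4 in DC2, and 65.3 and 44.6 in DC3. Il17ra, the shared chain of the IL-17 receptors, was at 15 and 14 CPM in DC1a and between 30.2 and 74.2 in the other 6 libraries. For both genes the DC1a libraries were the lowest, at the nearest 13.3 against 17.1 CPM for Il6ra and 15 against 30.2 CPM for Il17ra. Neither difference of DC2 from DC1a was called by edgeR (2.79 ± 0.76, adjusted p = 0.125, and 1.96 ± 0.49, adjusted p = 0.102, on the log2 scale). DESeq2 called both (adjusted p = 0.0025 for Il6ra and 0.00259 for Il17ra).

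The 2 chains of the IL-10 receptor and the IL-13 binding chain showed no call among untreated populations by edgeR. DESeq2 called Il10rb lower in DC3 than in DC2 (adjusted p = 0.000695). Il10ra, which binds IL-10, ranged from 8.26 CPM (DC1a pool 1) to 176 CPM (DC2 pool 1), with adjusted p = 0.490 for any difference (edgeR). Its partner Il10rb was lowest in DC3, at 22.9 and 7.76 CPM, against 148 and 71.7 in DC2, 48.7 and 107 in DC1b, and 33.3 and 23 in DC1a (adjusted p = 0.188 for any difference). Il13ra1 lay between 20.1 and 73.3 CPM in all 8 libraries (adjusted p = 0.762).

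**Figure D2:**
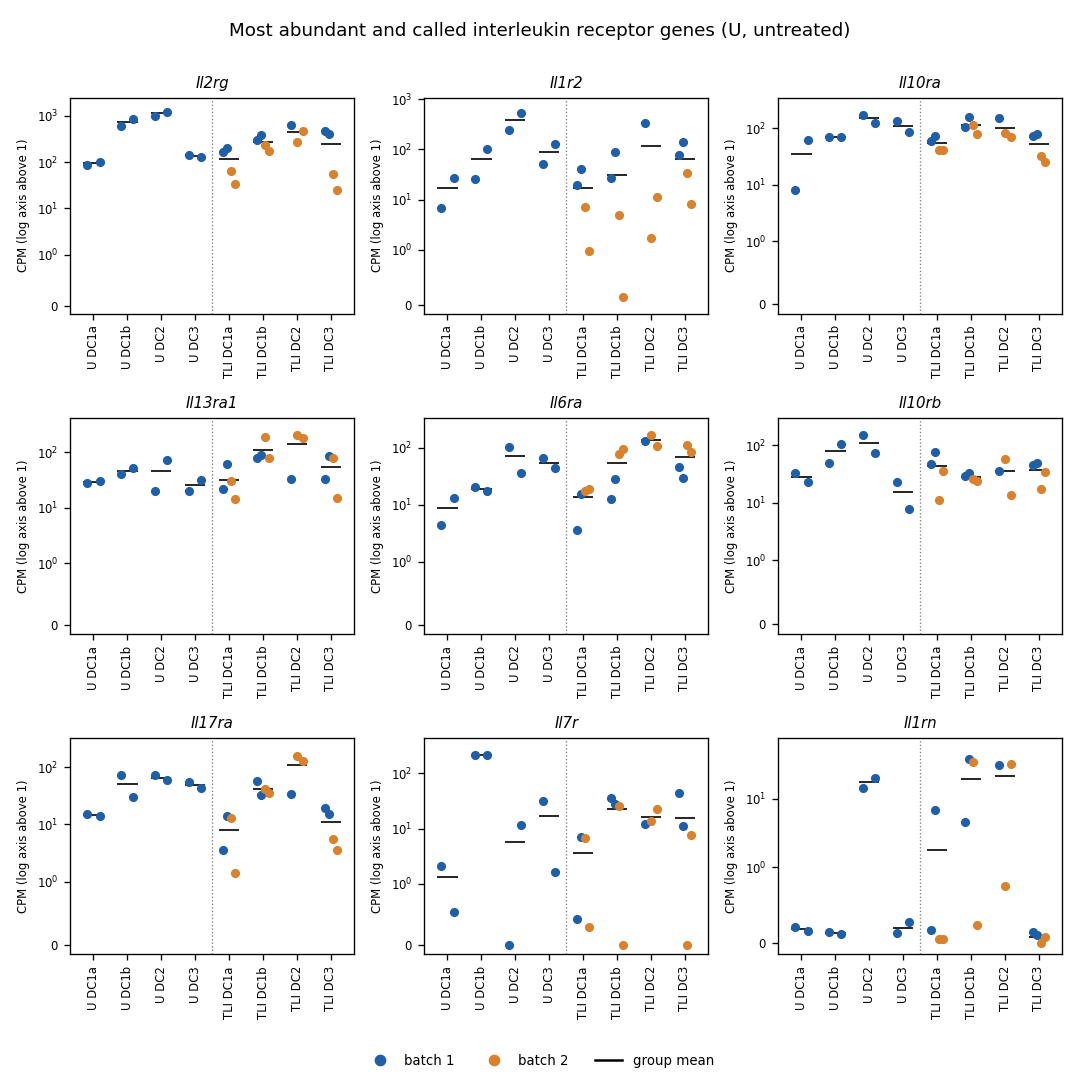
CPM (y axis, logarithmic above 1) of the 9 most abundant or called members in the 8 groups (x axis). Each point is a library, coloured by the batch in the labels, and the bar is the group mean. Il2rg lies at 602 to 1246 CPM in untreated DC1b and DC2 and at 85.7 to 143 CPM in untreated DC1a and DC3, and within TLI groups the batch 2 points of Il1r2 lie below those of batch 1.

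After TLI the members called among populations were the IL-10 and IL-6 binding chains, and the shared IL-17 chain in 1 pair. Of 27 members tested, 2 were called for any difference among the 4 TLI populations (edgeR with a term for batch), against 2.76% of all genes. Without adjustment 8 had p under 0.05, against 16% of all genes. None of these was among those called in untreated mice by edgeR, which does not by itself show a change with TLI. The joint test of whether the TLI difference depended on the population called 0 of 35 members (edgeR), against 0.0357% of all genes. For Il6ra, DC2 exceeded DC1a by 2.79 on the log2 scale in untreated mice, without a call by edgeR, and by 2.99 after TLI. For Il17ra the values were 1.96, without a call by edgeR, and 3.62.

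Il6ra was measured in TLI DC1a at 3.59, 15.6, 17.8 and 18.9 CPM (pools 1 to 4) and in DC2 at 134, 168 and 109 CPM (pools 1, 3 and 4). DC1b had 12.6, 28.6, 78.6 and 95.9 CPM, and DC3 had 46.0, 29.8, 112 and 85.5. Every DC2 library lay above every DC1a library, whereas DC1b overlapped with DC1a and with DC3. The adjusted p was 0.0363 for any difference, and DC2 was higher than DC1a by 2.99 ± 0.53 on the log2 scale (adjusted p = 0.0079, edgeR), where 2.97% of all genes were called. The other pairs of TLI populations in which no member was called had 1.46% (DC1b against DC1a), 0.634% (DC3 against DC1a), 0.165% (DC2 against DC1b) and 1.21% (DC3 against DC2) of all genes called. Within batches the Il6ra difference of DC2 from DC1a was 3.58 in batch 1, where DC2 is pool 1 alone, and 2.68 ± 0.36 in batch 2 (adjusted p = 0.0309, edgeR). The call of this pair over both batches was lost without DC2 pool 1 (adjusted p = 0.0617). The call for any difference was lost without 10 of the 15 libraries (adjusted p up to 0.118), holding without DC1a pool 2, DC1b pool 1 or 4, DC2 pool 4 or DC3 pool 2, and with the pool as a block its adjusted p was 0.103.

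Il10ra had 105, 160, 115 and 80.3 CPM in TLI DC1b (pools 1 to 4) and 74.6, 79.1, 33.1 and 25.7 CPM in DC3. DC1a had 60.3, 74.7, 41.8 and 40.9 CPM, and DC2 had 151, 83.9 and 69.3. DC1b lay above DC1a and DC3 without overlap. The adjusted p was 0.0317 for any difference (edgeR), and Il10ra was lower in DC3 than in DC1b with a log2 difference of -1.39 ± 0.27 (adjusted p = 0.0268; 1.02% of all genes called). In the separate batches it was -0.87 ± 0.39 (adjusted p = 0.746) and -1.91 ± 0.35 (adjusted p = 0.130, edgeR), so neither batch alone gave a call. That pair was lost without DC1b pool 2, 3 or 4 or DC3 pool 3 or 4 (adjusted p up to 0.117), and with no filter on low counts (0.175). The call for any difference held without DC1b pool 1, DC3 pool 1 or DC3 pool 2 and was lost without each of the other 12 libraries (up to 0.0846), with the pool as a block (0.0548), with no filter on low counts (0.165) and in a fit of all 23 libraries (0.181), where the pair was lost too (0.164).

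Il17ra had 3.59, 14.1, 13.1 and 1.41 CPM in TLI DC1a (pools 1 to 4) and 34.1, 161 and 130 CPM in DC2 (pools 1, 3 and 4). DC1b had 57.5, 32.6, 42.7 and 35.2 CPM, and DC3 had 19.7, 15.5, 5.59 and 3.53. DC1a lay below DC1b and DC2 without overlap. DC2 exceeded DC1a by 3.62 ± 0.87 on the log2 scale (adjusted p = 0.0428, edgeR). The difference was 1.72 in batch 1, where DC2 is pool 1 alone, and 4.08 ± 1.05 in batch 2 (adjusted p = 0.165, edgeR). The call over both batches held without DC2 pool 1 or DC3 pool 1. It was lost without each of the other 13 libraries (adjusted p up to 0.121) and had an adjusted p of 0.0540 with the pool as a block.

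Il2rg was again lowest in DC1a and highest in DC2 by median among DC1a, DC1b and DC2 after TLI. TLI DC1a had 163, 206, 64.1 and 33.3 CPM, DC1b 295, 395, 239 and 175, DC2 624, 275 and 474, and DC3 484, 404, 56.1 and 24.8. DC2 lay above DC1a without overlap, by 2.29 ± 0.57 on the log2 scale, and was not called (adjusted p = 0.0511, edgeR). The difference was 1.51 in batch 1, where DC2 is pool 1 alone, and 2.69 ± 0.55 in batch 2 (adjusted p = 0.0975, edgeR). Over both batches it passed the threshold without DC1b pool 3, DC3 pool 1 or DC3 pool 4 (adjusted p down to 0.0275) and with no filter on low counts (0.00603). In DC3 the 2 libraries of batch 1 lay far above the 2 of batch 2. Il1rn was present in some DC1b and DC2 libraries (4.64, 38.5, 34.4 and 0.238 CPM, and 31.4, 0.753 and 32.7 CPM) and was at most 0.142 CPM in DC3, with adjusted p = 0.125 for any difference (edgeR). Neutrophil markers (7 genes) summed to 1052 to 13617 CPM in TLI DC1b, 110 to 1830 in TLI DC2, at most 72.1 in TLI DC1a and DC3, and at most 13.4 in untreated libraries, and their part in the Il1rn, Il6ra and Il17ra levels was not tested. The list for monocytes and macrophages (9 genes) summed to 933 to 3177 CPM in TLI DC1b and 732 to 2734 in TLI DC2, against 175 to 589 in DC1a and 288 to 971 in DC3. Of its 9 genes, 5 were called higher in DC1b than in DC1a, 4 in DC2 than in DC1a, and 1 (Cd68) lower in DC3 than in DC1b, and their part in the Il6ra, Il17ra and Il10ra levels was not tested.

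TLI was compared with no treatment within each population in a fit of all 23 libraries with a term for batch, in which 35 members were tested. By edgeR's quasi-likelihood test no member was called in DC1a, DC1b, DC2 or DC3, where 0.0102%, 0.413%, 0.0612% and 0.0255% of all genes were called. Before adjustment 4, 7, 5 and 6 members had p under 0.05, against 9.76%, 12.4%, 9.01% and 10.4% of all genes. DESeq2 called 3, 4, 2 and 0. The shares of all genes that DESeq2 called are not given here, so these counts cannot be set against the edgeR shares. The members DESeq2 called were Il18rap, Il22ra2 and Il31ra in DC1a, Il17rb, Il18rap, Il1rn and Il22ra2 in DC1b, and Il18rap and Il1rl1 in DC2. The joint test over the 4 populations of whether the difference with TLI depended on the population called no member with edgeR or with DESeq2, with 6 at an unadjusted p under 0.05 by edgeR, and 0.0357% of all genes called (7.82% before adjustment). When pairs of populations were compared for that dependence, edgeR called no member in any of the 6 pairs, and DESeq2 called 1 to 3 members in each, drawn from Il18rap, Il1rl1, Il1rn, Il22ra2 and Il31ra.

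The members with the lowest adjusted p in these comparisons were in DC1b. Il17rb, at 25.8 and 5.68 CPM in untreated DC1b, was at 0, 0, 0.111 and 0.149 CPM in TLI DC1b (adjusted p = 0.170, edgeR). Il1rn, at 0.141 and 0.12 CPM in untreated DC1b, was at 4.64 to 38.5 CPM in 3 TLI DC1b libraries and 0.238 CPM in the other (adjusted p = 0.202). All 4 TLI libraries lay on one side of the untreated pair for Il17rb, and on the other side for Il1rn. Il7r was not called, with TLI DC1b values of 36.2, 27.5, 26.1 and 0 CPM that were all below the untreated 215 and 215 (-2.57 ± 2.08 on the log2 scale, adjusted p = 0.657, edgeR). The plasmacytoid list (6 genes) summed to 4035 and 5616 CPM in untreated DC1b and to 61.8 to 153 CPM in TLI DC1b, and its part in the Il7r and Il17rb values was not tested.

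For Il2rg the comparison with untreated mice depended on how the batches were treated. In DC1b all 4 TLI libraries (175 to 395 CPM) were below both untreated libraries (602 and 875), while the fitted log2 difference was -0.18 ± 0.60 with the batch term, -1.12 ± 0.80 without it and -0.79 ± 0.29 in batch 1 alone (adjusted p = 0.956, 0.658 and 0.368, edgeR). Leaving out untreated DC1b pool 2 or TLI DC1b pool 1 or 2 turned the first of these positive, to at most 0.16. In DC3 the difference was 1.27 ± 0.59 with the term, and within batch 1 Il2rg was measured at 143 and 127 CPM in untreated and 484 and 404 CPM in TLI libraries, a log2 difference of 1.90 ± 0.30 that was not called (adjusted p = 0.103, edgeR). In the same libraries the natural killer cell list (6 genes) summed to 399 and 235 CPM in untreated and 3914 and 941 CPM in TLI DC3, and the erythroid list to 34.3 to 90.7 CPM and 11868 to 82992 CPM. Their part in this difference was not tested.

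The batch contrast among TLI libraries is also a contrast between different pools of mice, so the 2 cannot be told apart. The comparison was added after the data were seen. Of 27 members tested, 6 were called, and of all genes 18.8% were called, so the share of members was close to that of all genes. Of the 6, Il1r2, Il10ra, Il2rg, Il23r and Il2rb were lower in batch 2 (8.95% of all genes were) and Il6ra was higher (9.86% of all genes). Il1r2 ranged from 19.4 to 340 CPM in the 7 libraries of batch 1 (median 77.2) and from 0.149 to 33.8 CPM in the 8 of batch 2 (median 6.03), a log2 difference of -3.78 ± 0.83 (adjusted p = 0.0082, edgeR). Il2rg fell from a median of 395 CPM (163 to 624) to 119 CPM (24.8 to 474), a log2 difference of -1.81 ± 0.41 (adjusted p = 0.0105). Il10ra changed by -0.88 ± 0.19 (adjusted p = 0.0083).

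Il6ra moved the other way, from a median of 28.6 CPM (3.59 to 134) in batch 1 to 90.7 CPM (17.8 to 168) in batch 2, by 1.18 ± 0.36 on the log2 scale (adjusted p = 0.0380, edgeR). The calls of Il1r2, Il2rg and Il10ra held whichever library was left out, and that of Il10ra was lost with no filter on low counts (adjusted p = 0.108, edgeR). The call of Il6ra held only without DC1a pool 2, DC2 pool 1 or 4 or DC3 pool 1 (adjusted p otherwise up to 0.0783), that of Il2rb was lost without DC1a pool 3 or 4, DC2 pool 1 or DC3 pool 2 (up to 0.0951), and that of Il23r without DC1a pool 1 or DC1b pool 3 (up to 0.0748). Beside these differences the erythroid list summed to 11868 to 82992 CPM in batch 1 and 88.7 to 4104 CPM in batch 2. Markers of T cells (6 genes) summed to 63.5 to 294 CPM in batch 1 and at most 36.8 CPM in batch 2. The natural killer cell list (6 genes) summed to 191 to 3914 CPM in batch 1 and at most 89.4 CPM in batch 2. A list for all dendritic cells (5 genes) summed to 18955 to 82842 CPM in batch 1 and 7764 to 23885 CPM in batch 2, with overlap. The part of these lists in the batch differences was not tested.

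Il2rb, Il27ra, Il18r1 and Il18rap, known from lymphocytes and natural killer cells and chosen after their values were seen, had their highest value in DC3 of TLI pool 1 or 2. Il2rb, the signalling chain for IL-2 and IL-15, had 35.0 and 80.9 CPM there, against 1.16 and 0 CPM in TLI DC3 pools 3 and 4 and at most 21.1 CPM in every other library. Il27ra had 35.3 and 29.4 CPM against 0 and 0. Il18r1 had 43.8 and 8.79 CPM against 2.21 and 2.16.
The fourth, Il18rap, which pairs with Il18r1, had 81.7 and 9.49 CPM against 0 and 0, but reached 43.9 CPM in TLI DC2 pool 4. Natural killer cell markers (6 genes) summed in TLI DC3 to 3914, 941, 58.2 and 89.4 CPM in pools 1 to 4, with Ncr1 at 1112 and 340 CPM in pools 1 and 2 and at most 61.4 CPM in every other library, and to 399 and 235 CPM in untreated DC3. Their part in the levels of the 4 chains was not tested.

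**Figure D3:**
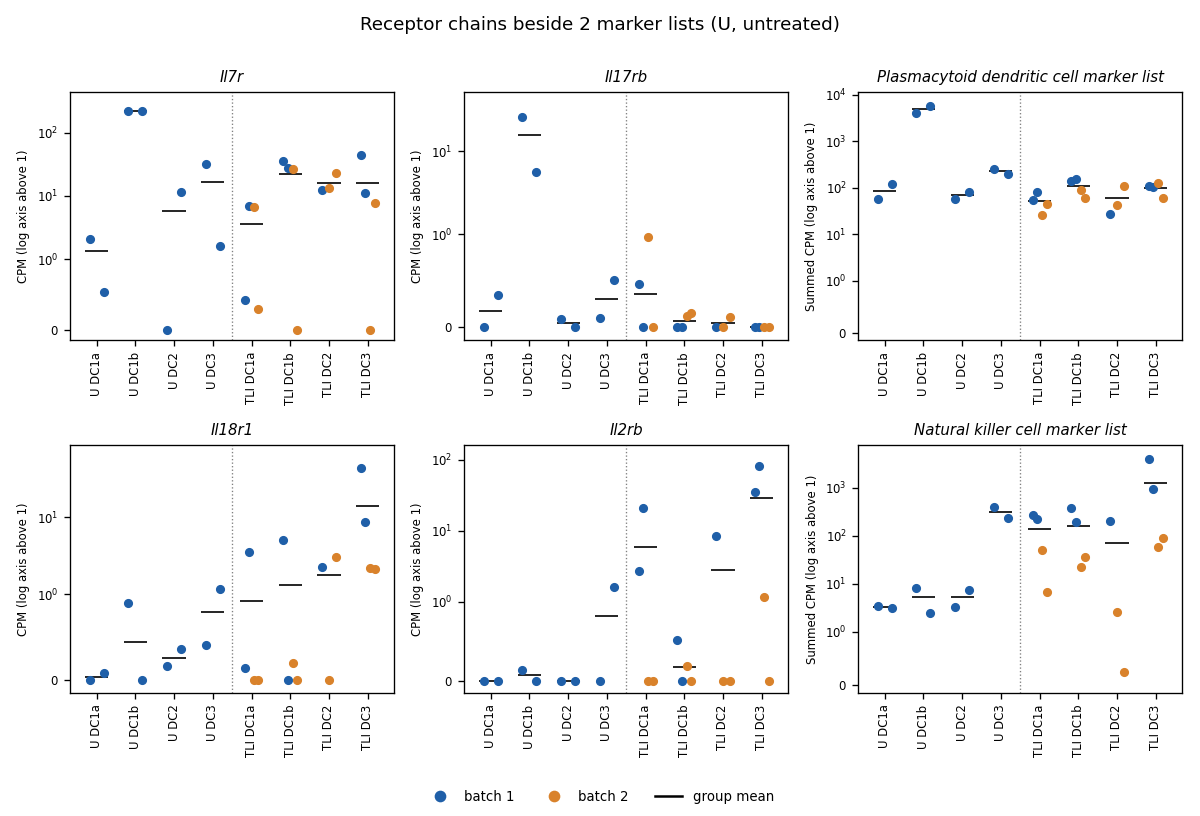
CPM (y axis, logarithmic above 1) of Il7r and Il17rb beside the summed plasmacytoid marker list (upper row) and of Il18r1 and Il2rb beside the summed natural killer cell list (lower row) in the 8 groups. Points are libraries coloured by batch and bars are group means. Il7r and the plasmacytoid list both peak in untreated DC1b (215 CPM, and 4035 and 5616 CPM), and Il2rb and the natural killer list in TLI DC3 pools 1 and 2.

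For 26 receptors defined by textbook pairings, chosen with the values known, the lowest chain was read in each library. A receptor is termed complete in a library where the RNA of every chain reached 1 CPM. In pooled cells these chains need not come from the same cells, and their proteins were not measured. Both chains of the IL-10 receptor (Il10ra and Il10rb) and of the IL-6 receptor (Il6ra and Il6st) reached 1 CPM in 23 of 23 libraries. The type I (Il4ra and Il2rg) and type II (Il4ra and Il13ra1) IL-4 receptors did so in 20 of 23, with Il4ra the lower chain in each library. The IL-7 pair (Il7r and Il2rg) reached 10 CPM in 12 libraries, including both of untreated DC1b.

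At the other end, 3 of the 26 receptors (those for IL-31 and IL-22 and the type I IL-20 receptor) reached 1 CPM for all chains in no library. The IL-12 receptor was complete at that level in 2 TLI libraries only, since Il12rb1 exceeded 1 CPM in those alone, while Il12rb2 reached 25.6 CPM. Il12rb2 shares 1519 bp of exons with Serbp1 on the opposite strand, and no source used here says that strand was used in counting, which leaves its level uncertain. The IL-1 receptor (Il1r1 and Il1rap) was complete in 2 libraries and the IL-17A receptor (Il17ra and Il17rc) in 2, with Il17rc at most 1.28 CPM. The full IL-15 receptor (Il15ra, Il2rb and Il2rg) was complete in 1 untreated and 5 TLI libraries, with Il2rb the lowest chain in 20 of 23. In these 6 libraries the natural killer cell list summed to 206 to 3914 CPM. It also reached 399 CPM in untreated DC3 pool 1 and 381 CPM in TLI DC1b pool 1, where this receptor was not complete. The part of natural killer cells in these levels was not tested.

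**Figure D4:**
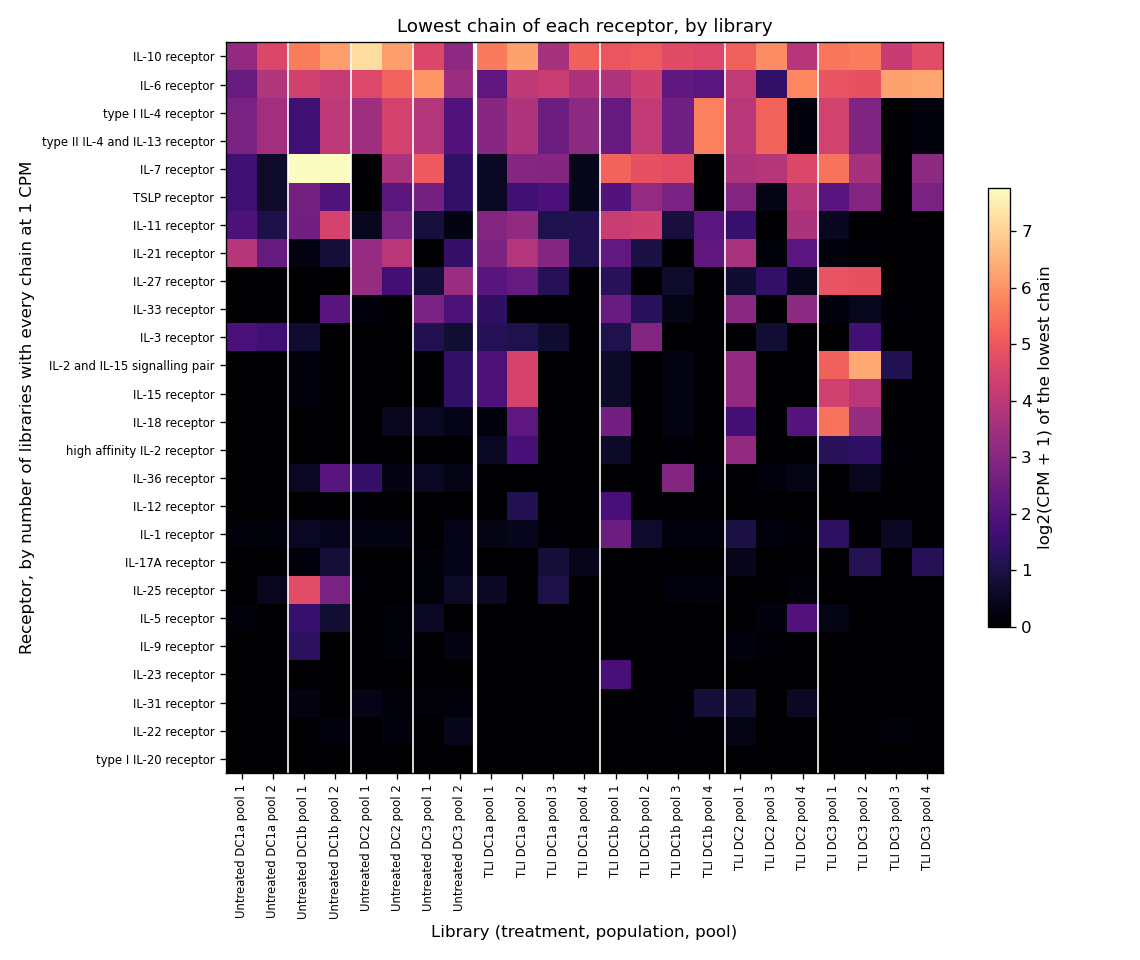
Log2(CPM + 1) of the lowest chain of 26 interleukin receptors (rows, ordered by the number of libraries with every chain at 1 CPM) in the 23 libraries (columns). Every chain of the IL-10 and IL-6 receptors reaches 1 CPM in 23 of 23 libraries. The IL-7 receptor is brightest in untreated DC1b, and the bottom 3 rows reach 1 CPM in no library.

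The other 32 members were described by range. In the common gamma group, Il15ra lay between 0 and 59.6 CPM and Il4ra between 0 and 50.9, and both had over 3 counts in 22 of 23 libraries. Il21r stayed at or under 14.4 CPM and Il2ra at or under 21.7 CPM. In the IL-1 family Il1rap was found in every library at up to 22.8 CPM, and Il1rl1 (the IL-33 receptor) and Il1rl2 (the IL-36 receptor) reached 15.1 and 25.1 CPM in single libraries. Of the class II chains, Il22ra2, a soluble binding protein for IL-22, was over 3 counts in 2 libraries, at 1.14 CPM and 9.64 CPM. The near-identical genes Il11ra1 (up to 23.8 CPM) and Il11ra2 (up to 1.99 CPM) may share reads and are uncertain.

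Few genes around the receptors were called among the populations. Of 18 signalling genes (JAK, STAT, IRAK and related), 1 was called in an untreated pair, Stat3, a transducer of IL-6 and IL-10 signals, which had 36.3 and 27.3 CPM in DC1a and 147 and 136 CPM in DC2 (1.92 ± 0.35 on the log2 scale, adjusted p = 0.0485, edgeR), in a pair where 2.67% of all genes were called. The median log2 difference of DC2 from DC1a was 0.838 over the 18 and 0.131 over all genes. Of 26 ligands, 14 were tested in untreated mice and none was called in any of the 6 pairs, with median log2 differences of -1.70 for DC1b and -1.24 for DC2 against DC1a, where the medians of all genes were 0.12 and 0.13. The 26 ligands summed to 5886 and 8210 CPM in untreated DC2, mostly Il1b, and to between 1296 and 2331 CPM in the other untreated libraries. In TLI mice 16 ligands were tested and 1 fell in each of 4 pairs: Tslp in DC2 against DC1a (2.97% of all genes called), Il12b in DC3 against DC1a (0.634%), Il27 in DC3 against DC1b (1.02%), and Il1b in DC3 against DC2 (1.21%; -1.34 ± 0.24, adjusted p = 0.0129, edgeR). None of the 9 partner chains outside the family was called in untreated mice, and Osmr, with no count in the 4 TLI DC3 libraries and at most 1.02 CPM in the other TLI libraries, was lower in TLI DC3 than in DC1b and DC2. No gene of the 4 feedback inhibitors (Cish and the Socs genes) was called among populations, and in the comparisons of TLI with untreated mice none of these 57 genes was called.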

How the data were processed

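The authors trimmed reads (Trimmomatic), aligned them to GRCm38 with HISAT2 and derived the deposited expected counts with StringTie; they are estimated counts from transcript coverage, whole numbers that are not scaled for depth or length. Amplified SMART-seq cDNA without molecular tags was sequenced, so p-values cover the spread between pools. Libraries totalled 19256447 to 36997890 counts. Counts were fitted with edgeR 4.0.16 in R 4.3.3 (TMM scaling, edgeR's filter with a minimum count of 10, quasi-likelihood tests, Benjamini-Hochberg adjustment over all genes tested, threshold 0.05), for the 8 untreated libraries, the 15 TLI libraries with batch, and all 23 with batch, which is estimated from TLI pools alone. DESeq2 1.42.0 was an alternative, beside other filters and scalings, the pool as a replicate block, fits without the batch term or within 1 batch, and leaving out each library. CPM used the unscaled library totals, and TPM the exonic length of each gene. The scripts were tested on simulated data. Gene names and positions came from GENCODE M21 (GRCm38), which held 47224 of 47729 identifiers.

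Members called in a comparison of populations or of TLI with untreated mice, and the 8 with the highest mean CPM, were given by library (9 genes), and the other 32 by range. The members and lists were chosen with earlier results of these data known. Pool numbers in the labels mark a shared pool within a treatment, so they pair populations. Deviations from group means correlated between same-numbered libraries at -0.0058 to 0.0159 in untreated mice and 0.0801 to 0.394 after TLI. Batch was not removed from these deviations, and same-numbered TLI libraries share a batch. The TLI values therefore hold the batch difference too and do not measure the sharing of a pool alone.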

Additional observations from a re-analysis of the deposited data

Results flagged for a closer look

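In groups of 4 TLI libraries, a library was marked where its gap to the nearest other, divided by the range of the group, exceeded the 95% critical value of Dixon's test. For normally distributed values chance would mark about 1 in 20 of the 63 groups examined. That rate does not apply to groups of mostly zero counts, where a single library with counts is marked by construction. Il11ra1 in TLI DC3 and Il23r in TLI DC1a are such groups, so the number of marks cannot be read as an excess. Il13ra1 was marked at 188 CPM in TLI DC1b pool 3, against a median of 79.7 CPM in the other 3. TLI DC1a pool 2 was marked for Il1rn (6.8 CPM), Il2rb (21.1 CPM), Il18r1 (3.57 CPM) and Il22ra2 (1.14 CPM). TLI DC3 pool 1 was marked for Il18r1 (43.8 CPM), Il18rap (81.7 CPM), Il23r (5.69 CPM) and Il11ra1 (0.379 CPM), and TLI DC3 pool 2 for Il1rl2 (1.85 CPM) and Il1rl1 (0.923 CPM). The remaining marks were Il18r1 in TLI DC1b pool 1 (5.16 CPM), Il1rl2 in TLI DC1b pool 3 (19.4 CPM), Il22ra2 in TLI DC1b pool 4 (9.64 CPM), and Il1rl1 (1.55 CPM) and Il23r (0.352 CPM) in TLI DC1a pool 1. In each case the marked library was the highest of its group.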

How the results depend on the processing

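Among untreated populations 2 members were called. DESeq2 called 9 (Il10rb, Il17ra, Il17rb, Il1r2, Il1rl2, Il1rn, Il27ra, Il2rg and Il6ra). The fit of all 23 libraries called 1 (Il2rg, of whose 4 pairs 2 were lost). The count was 0 to 1 when each library was left out in turn. For the alternatives in this section the share of all genes called is not given. Their counts therefore cannot be set against the shares of the main fits or read as a result about the members. The replicate block kept 2, with Il1r2 in place of Il1rn. Among TLI populations 2 members were called, against 4 with no filter on low counts, 7 by DESeq2, 4 in the fit of all 23 libraries (in both sets of 4, Il17ra, Il1rn, Il2rg and Il6ra, without Il10ra), and 0 with the replicate block, without the batch term, in batch 1 alone or in batch 2 alone (0 to 2 when leaving out a library). The comparisons of TLI with untreated mice gave 0 members under every alternative run except DESeq2 (3 in DC1a, 4 in DC1b and 2 in DC2). The 6 members called between batches became 13 by DESeq2 and 4 to 10 when leaving out a library. Single-gene differences reversed for Il13ra1 (TLI DC2 against DC1a, not called in any fit of edgeR, -0.58 in batch 1 alone against 1.74) and for Il2rg in TLI against untreated DC1b (-0.45 to 0.16 over the libraries left out, and 0.161, 0.158 and 0.02 without untreated DC1b replicate 2, TLI DC1b replicate 1 and TLI DC1b replicate 2). In batch 1 alone TLI DC2 is pool 1 only, so the Il13ra1 reversal rests on that library. The causes were not tested. Depth sets a floor of 3 counts, 0.0811 to 0.156 CPM, under which no level is read, and the untreated groups hold 2 libraries each.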
